A study of Homo sapiens with 43 samples.

Results

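Dexamethasone (Dex), a synthetic glucocorticoid, was given at 500 nM to GM12878 cells for 1 h or 6 h, and the change in its effect between the times was read from 8 of the 43 libraries of the series. GM12878 is an established human lymphoblastoid line, made from B cells of 1 person by infection with Epstein-Barr virus, so the results are of 1 cell line. All 8 libraries came from cells given DMSO for 30 min before the stimulus, as the solvent control of BRM014, an inhibitor of the ATPases SMARCA4 and SMARCA2 of BAF chromatin remodelling complexes. They form 4 groups of 2 libraries each, DMSO+Veh 1h, DMSO+Dex 1h, DMSO+Veh 6h and DMSO+Dex 6h. The kinetics of a gene is the log2 change with Dex against vehicle at 6 h minus the same change at 1 h, so a value above 0 means that the ratio of Dex to vehicle was higher at 6 h than at 1 h. Of 15183 genes with enough counts to test, 1209 fell into a time class. A gene was transient when the 1 h change and the kinetics were called and the 6 h change was not (7 genes), sustained when it was called in the same direction at both times (83 genes), and late when it was called at 6 h only and the kinetics were called as well (1119 genes). Among sustained genes the kinetics separated 7 fading, 50 held and 26 growing changes. A call is an adjusted p under 0.05 in edgeR's quasi-likelihood test, with the Benjamini-Hochberg adjustment over all genes tested, and every adjusted p below is of that kind unless another tool is named. Whether the 2 replicates of a group came from separate cultures is not stated, and the p-values then cover no more than the spread between the sequenced samples, possibly a technical one.

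The glucocorticoid receptor, encoded by NR3C1, waits in the cytoplasm with heat shock protein chaperones and moves to the nucleus when it binds hormone. There it binds DNA at glucocorticoid response elements and raises nearby genes, and it lowers many genes driven by the inflammatory factors NF-kB and AP-1. FKBP5, a co-chaperone that lowers the receptor's affinity for hormone, and NFIL3, a basic leucine zipper repressor, are known targets. In lymphocytes glucocorticoids are known for anti-inflammatory action, for altered homing and for induction of the pro-apoptotic gene BCL2L11.

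Stretches directly upstream of the RefSeq start are shown for the 4 genes that Dex lowered less at 6 h than at 1 h (TNF, GADD45B, JUNB and BTG2) and for CXCR4, which rose at 1 h and rose further, because the TATA box letters TATAAA stood in 4 of the 5 at nearly the same distance. Since the letters guided the choice, 4 of the 5 is not a share of any class. A further stretch, from TXNIP, holds 1 of the few palindromic glucocorticoid response element matches found. Sequences run 5′ to 3′ on the gene's strand, from RefSeq on GRCh38.p14, with the motif in capitals.
TNF: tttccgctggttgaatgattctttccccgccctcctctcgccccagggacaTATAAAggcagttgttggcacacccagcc
GADD45B: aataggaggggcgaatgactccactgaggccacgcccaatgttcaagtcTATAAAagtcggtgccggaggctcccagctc
JUNB: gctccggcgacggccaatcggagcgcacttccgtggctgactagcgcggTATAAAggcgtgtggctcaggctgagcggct
BTG2: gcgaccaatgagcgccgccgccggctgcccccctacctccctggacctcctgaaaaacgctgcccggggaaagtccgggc
CXCR4: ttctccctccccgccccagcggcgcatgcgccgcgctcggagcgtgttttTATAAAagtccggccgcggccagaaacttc
TXNIP: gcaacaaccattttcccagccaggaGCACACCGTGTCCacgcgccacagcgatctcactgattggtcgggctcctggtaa

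The first 5 cover the 80 bases before the start, at chr6:31575485-31575564 for TNF, chr19:2476047-2476126 for GADD45B, chr19:12791406-12791485 for JUNB and chr1:203305439-203305518 for BTG2 on the plus strand, and chr2:136118150-136118229 for CXCR4 on the minus strand. TATAAA began 29 bases before the start in TNF, 30 in CXCR4 and 31 in GADD45B and JUNB, and the BTG2 stretch does not hold it. The CXCR4 stretch lies inside the gene span given below, so it is upstream of the RefSeq start used and not of the whole gene. The TXNIP stretch, chr1:145996700-145996779 on the minus strand, runs from 200 to 121 bases before the start, with the match GNACANNNTGTNC beginning at base 175 before it. Both motifs were searched on both strands from 250 bases before to 50 after the start, in the first entry listed for each symbol, and 10949 of the genes tested had an entry. TATAAA was in 5.81% of these, in 6 of the 47 genes raised at 1 h that had an entry (12.8%), in 6 of the 30 lowered at 1 h, in 5.63% of 444 late genes that rose and in 8.33% of 444 that fell. By class it was in 3 of 4 lowered fading genes, but in 0 of 5 lowered transient ones. It was in 2 of 18 raised growing genes (11.1%), CXCR4 among them, and in 4 of 25 raised and 3 of 18 lowered held genes. GNACANNNTGTNC reads the same on both strands and was in 22 of the 10949 (0.201%), among them TXNIP and WNT16 of the 47 raised at 1 h (4.26%) and none of the 30 lowered. These are descriptions of letters in 1 window, without a test.

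At 1 h, 92 genes passed the test (0.606% of genes tested), 55 higher and 37 lower with Dex. At 6 h, 2367 did (15.6%), 1224 higher and 1143 lower. The kinetics were called for 1181 genes (7.78%), 596 in the direction of a rise (3.93%) and 585 of a fall (3.85%). The 8 libraries held 13.8 to 22.3 M counts. Leaving out Dex replicate 1 at 1 h brought the 1 h calls down to 61, whereas the kinetics calls ranged from 821 to 1009 over the 8 libraries left out in turn. The 6 h vehicle pair differed most between replicates (chi-square per degree of freedom 7.28, against 2.52 to 2.59 in the other 3 groups), and the kinetics calls numbered 1009 without its replicate 1 and 945 without its replicate 2. In vehicle cells alone, 217 genes differed between 6 h and 1 h (1.43%), 170 of them higher at 6 h, and 41, 27 and 60 without vehicle replicate 1 at 1 h, vehicle replicate 2 at 1 h and vehicle replicate 1 at 6 h.

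**Figure D1:**
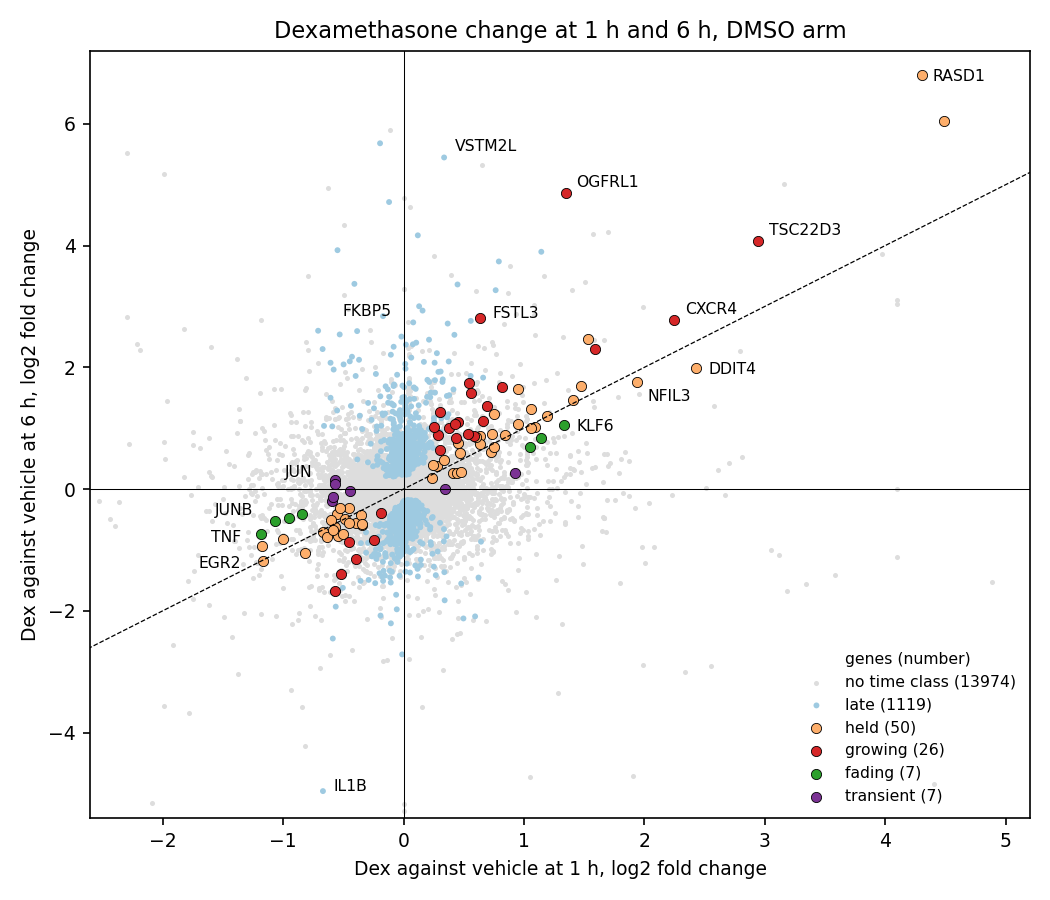
Each point is a gene, with the log2 fold change of Dex against vehicle at 1 h on the x axis and at 6 h on the y axis, coloured by time class, and the dashed line marks equal changes. Late genes (pale blue) gather around the vertical zero line, FKBP5 among them at 0.081 and 2.74, whereas TSC22D3 (2.95 and 4.07) and OGFRL1 (1.35 and 4.86) lie right of it and above the dashed line. Points beyond the axes are not drawn, among them a late rise of 8.48 at 6 h.

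The 2 marker genes of the Dex response fell into different classes. Levels are in CPM, the count scaled to library size. FKBP5 stood at 133 and 135 CPM with vehicle and 142 and 142 with Dex at 1 h, then 141 and 136 with vehicle and 920.0 and 930.0 with Dex at 6 h (chr6:35573585-35728583, minus strand). The Dex libraries at 6 h stood far above the other 6, which lay within a narrow band. The change was 0.081 ± 0.052 (SE) at 1 h, with adjusted p = 1.0, and 2.74 ± 0.052 (SE), adjusted p = 3.53e-27 at 6 h, which gives kinetics of 2.66 ± 0.073 (SE), adjusted p = 3.42e-22. NFIL3 was at 3.50 and 4.27 CPM with vehicle and 15.1 and 14.8 with Dex at 1 h, then 5.34 and 4.80 with vehicle and 18.7 and 15.3 with Dex at 6 h (chr9:91409045-91423832, minus strand). Both Dex pairs lay above both vehicle pairs, without overlap, at either time. NFIL3 had risen by 1.94 ± 0.15 (SE) at 1 h and was at 1.76 ± 0.15 (SE) at 6 h, and its kinetics of -0.18 ± 0.21 (SE), adjusted p = 0.760 did not pass the test. FKBP5 was thus late and NFIL3 held, and both classes stood in all 14 alternative analyses.

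Among transient genes, 5 were lower (0.0329% of genes tested) and 2 higher (0.0132%) with Dex at 1 h. JUN, the AP-1 subunit, is the 1 whose class stood in all 14 alternatives. JUN stood at 33.9 and 33.7 CPM with vehicle and 22.3 and 23.2 with Dex at 1 h, then 35.8 and 34.7 with vehicle and 36.8 and 38.4 with Dex at 6 h (chr1:58776845-58784048, minus strand). Only the 1 h Dex pair was low, and at 6 h both Dex libraries lay slightly above both vehicle libraries. JUN fell by 0.57 ± 0.094 (SE) at 1 h (adjusted p = 3.04e-04) and was at 0.092 ± 0.088 (SE) at 6 h (adjusted p = 0.579), with kinetics of 0.66 ± 0.13 (SE), adjusted p = 5.65e-04. IER2 lay at 60.7 and 54.4 CPM with vehicle and 36.6 and 39.4 with Dex at 1 h, then 65.1 and 59.6 with vehicle and 57.6 and 51.0 with Dex at 6 h. IER2, an immediate-early gene, changed by -0.60 at 1 h and -0.19 at 6 h. TOB1 was at 15.5 and 15.3 CPM with vehicle and 11.0 and 9.74 with Dex at 1 h, then 13.8 and 14.5 with vehicle and 13.9 and 17.6 with Dex at 6 h. TOB1, which promotes deadenylation of mRNA and slows proliferation, went from -0.57 to 0.14. SERTAD3 (-0.58 and -0.13) and IRF2BPL (-0.44 and -0.028) complete the lowered group. The raised pair was DUSP4, a phosphatase that inactivates MAP kinases (0.34 and 0.0045), and TAGAP, a GTPase-activating protein (0.93 and 0.27).

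The other 6 transient genes lost a call when single libraries were left out. The kinetics call of IER2 was lost without vehicle replicate 1 at 1 h, Dex replicate 1 at 1 h, vehicle replicate 2 at 6 h or Dex replicate 1 at 6 h (adjusted p 0.168 to 0.254), and with DESeq2 (adjusted p = 0.0610). For TOB1 it was lost without Dex replicate 2 at 1 h or Dex replicate 2 at 6 h (adjusted p 0.0516 to 0.0764), and the 1 h call without any 1 of the 4 libraries (adjusted p 0.0522 to 0.449). For SERTAD3 it was lost without any 1 library except Dex replicate 2 at 1 h or vehicle replicate 2 at 6 h (adjusted p 0.0548 to 0.224), and with DESeq2 or no filter on low counts or a fit of the compared groups alone (adjusted p 0.0665 to 0.137), and the 1 h call without Dex replicate 1 at 1 h (adjusted p = 0.0720). For IRF2BPL it was lost without vehicle replicate 1 at 1 h, Dex replicate 1 at 1 h or vehicle replicate 2 at 6 h (adjusted p 0.0554 to 0.0918), and the 1 h call without Dex replicate 1 at 1 h (adjusted p = 0.0513). For TAGAP it was lost without any 1 library except vehicle replicate 1 at 1 h or Dex replicate 1 at 1 h (adjusted p 0.0664 to 0.221), and with DESeq2 (adjusted p = 0.132), and for DUSP4 without vehicle replicate 1 at 1 h, Dex replicate 1 at 1 h, vehicle replicate 1 at 6 h or Dex replicate 1 at 6 h (adjusted p 0.0851 to 0.152). The 1 h call of DUSP4 was lost without vehicle replicate 1 at 1 h or Dex replicate 1 at 1 h (adjusted p 0.0924 to 0.266). Their number was 2 without Dex replicate 1 at 1 h, 3 without Dex replicate 1 at 6 h, and 4 without vehicle replicate 1 at 1 h, vehicle replicate 2 at 6 h or Dex replicate 2 at 6 h.

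Fading genes kept part of the 1 h change. The 4 that Dex lowered (0.0263% of genes tested) were the cytokine TNF, the AP-1 subunit JUNB, the stress gene GADD45B and the antiproliferative gene BTG2, and each kept its class in all 14 alternatives. TNF stood at 112 and 104 CPM with vehicle and 49.9 and 45.5 with Dex at 1 h, then 107 and 110.0 with vehicle and 65.7 and 64.8 with Dex at 6 h (chr6:31575565-31578336, plus strand). Dex and vehicle did not overlap at either time, and the 6 h Dex pair lay between the 1 h Dex pair and vehicle. TNF changed by -1.19 ± 0.065 (SE) at 1 h and -0.73 ± 0.064 (SE) at 6 h, with kinetics of 0.45 ± 0.091 (SE), adjusted p = 9.23e-04. JUNB was at 157 and 166 CPM with vehicle and 74.1 and 80.4 with Dex at 1 h, then 198 and 182 with vehicle and 133 and 131 with Dex at 6 h. JUNB changed by -1.06 ± 0.079 (SE) and -0.52 ± 0.076 (SE), with kinetics of 0.54 ± 0.11 (SE), adjusted p = 0.00166. GADD45B lay at 116 and 122 CPM with vehicle and 61.0 and 62.5 with Dex at 1 h, then 98.6 and 98.9 with vehicle and 72.9 and 69.9 with Dex at 6 h. Its vehicle libraries also fell between the times (-0.27 ± 0.057 (SE), adjusted p = 0.0125), while its Dex libraries rose, so both sides entered the kinetics of 0.48 ± 0.085 (SE), adjusted p = 1.70e-04. BTG2 stood at 216 and 195 CPM with vehicle and 115 and 115 with Dex at 1 h, then 221 and 219 with vehicle and 168 and 162 with Dex at 6 h, which gave kinetics of 0.43 ± 0.076 (SE), adjusted p = 2.01e-04.

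The 3 raised fading genes (0.0198%) were KLF6, a zinc finger factor (1.33 and 1.05), TIPARP, a mono-ADP-ribosyltransferase (1.14 and 0.84), and CDK5R1, an activator of the kinase CDK5 (1.05 and 0.70). KLF6 was at 70.3 and 73.9 CPM with vehicle and 180.4 and 183 with Dex at 1 h, then 67.3 and 68.7 with vehicle and 142 and 140.2 with Dex at 6 h. Dex and vehicle stayed apart at both times, and the 6 h Dex pair lay below the 1 h Dex pair. The kinetics of the 3, -0.28, -0.30 and -0.35, were smaller in size than those of the lowered group. For KLF6 the call was lost without any 1 library except vehicle replicate 2 at 1 h (adjusted p 0.0557 to 0.176), and with DESeq2 (adjusted p = 0.0660). For TIPARP it was lost without vehicle replicate 2 at 1 h, Dex replicate 2 at 1 h, vehicle replicate 2 at 6 h or Dex replicate 2 at 6 h (adjusted p 0.119 to 0.220). For CDK5R1 it was lost without any 1 library except vehicle replicate 2 at 1 h (adjusted p 0.0849 to 0.315), and with DESeq2 or DESeq2 size factors or the replicate block (adjusted p 0.0516 to 0.119). Fading genes numbered 4, all lowered, without vehicle replicate 2 at 6 h, Dex replicate 2 at 1 h or Dex replicate 2 at 6 h. CDK5R1, with adjusted p = 0.0486 for the kinetics, and KLF2, held with 0.0625, lie on either side of the threshold.

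**Figure D2:**
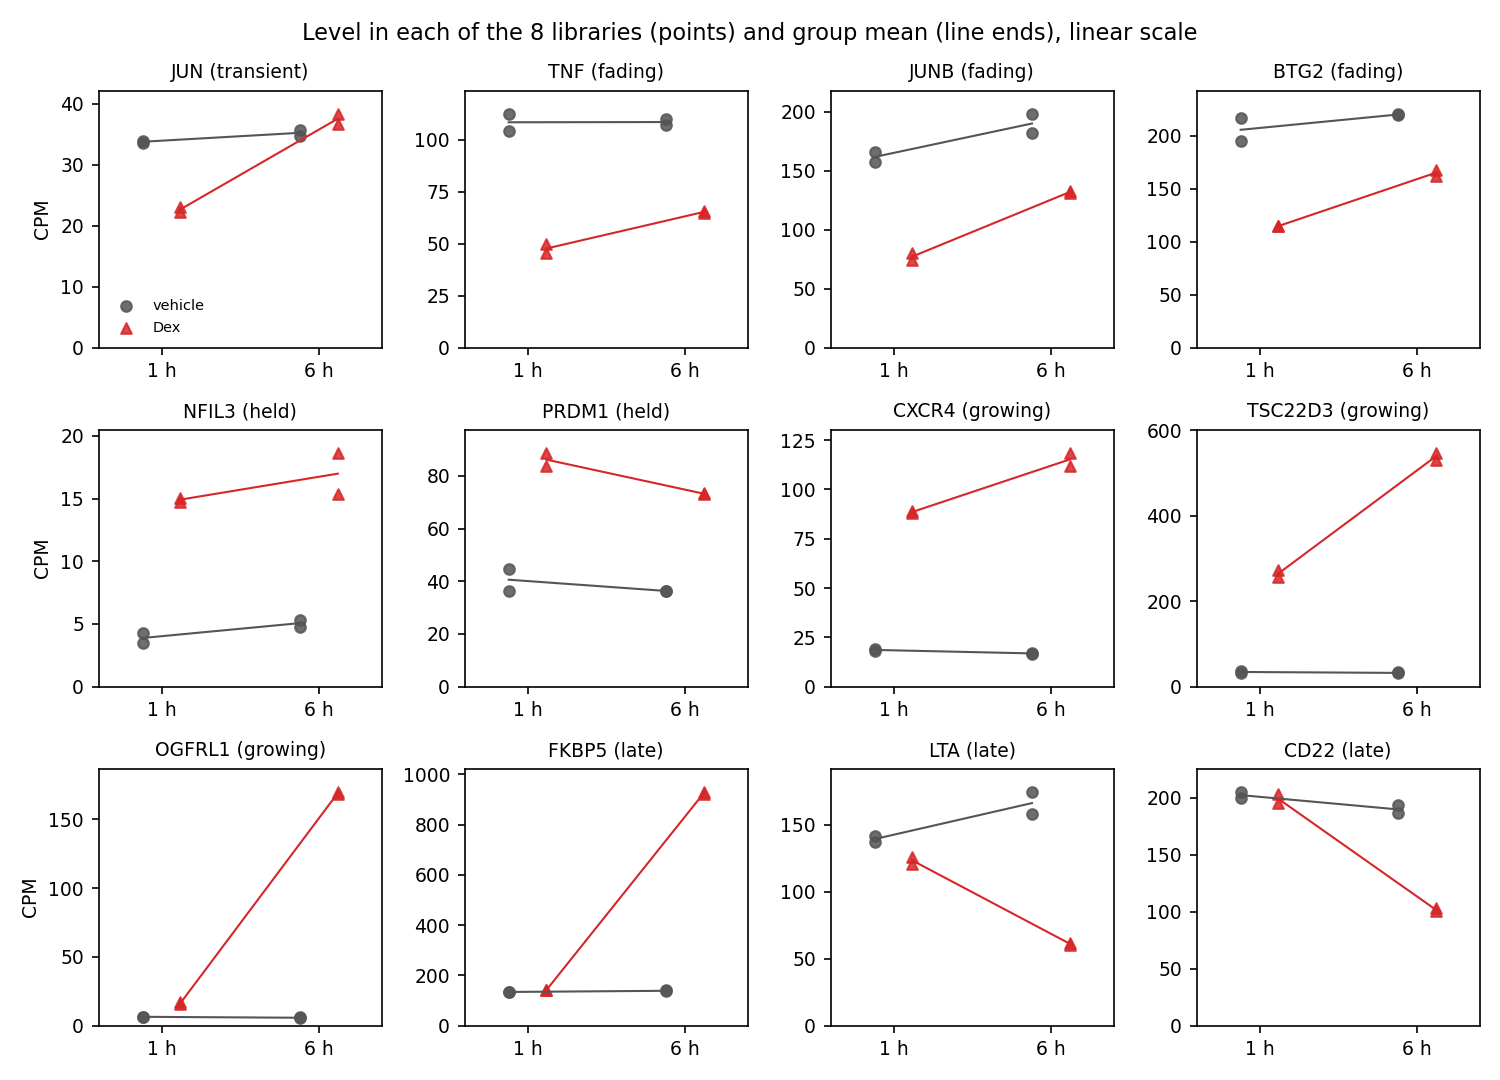
CPM of 12 genes in each of the 8 libraries, vehicle as grey circles and Dex as red triangles at 1 h and 6 h, with lines between group means and a linear y axis from 0. JUN returns to its vehicle level at 6 h, TNF, JUNB and BTG2 return in part, NFIL3 and PRDM1 stay raised, CXCR4, TSC22D3 and OGFRL1 rise further, and FKBP5, LTA and CD22 separate from vehicle mainly at 6 h.

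Held changes made up 30 raised (0.198%) and 20 lowered genes (0.132%). Leaving aside RASD1 and WNT16, which had 3 counts or fewer in vehicle, the raised ones had a median of 0.74 at 1 h and 0.88 at 6 h, and the lowered ones -0.55 and -0.60. ZFP36L2 stood at 70.4 and 69.6 CPM with vehicle and 201 and 188 with Dex at 1 h, then 64.9 and 68.0 with vehicle and 220.2 and 210.4 with Dex at 6 h. ZFP36L2, which directs mRNA to decay, rose by 1.47 ± 0.064 (SE) and 1.70 ± 0.064 (SE). SOCS1 was at 17.9 and 16.5 CPM with vehicle and 47.7 and 43.7 with Dex at 1 h, then 21.2 and 18.2 with vehicle and 52.8 and 55.9 with Dex at 6 h. SOCS1, an inhibitor of JAK kinases, rose by 1.41 ± 0.15 (SE) and 1.47 ± 0.14 (SE). PRDM1 lay at 44.8 and 36.4 CPM with vehicle and 88.8 and 83.7 with Dex at 1 h, then 36.5 and 36.2 with vehicle and 73.6 and 73.0 with Dex at 6 h. PRDM1, the repressor that drives plasma cell differentiation, rose by 1.09 ± 0.081 (SE) and 1.01 ± 0.083 (SE). TXNIP, an inhibitor of thioredoxin whose upstream stretch is printed above, held 794 and 795 CPM with Dex at 6 h against 377 and 380.5 with vehicle, a rise of 1.07 after 0.95 at 1 h. In all of these the Dex and vehicle libraries stood apart at both times, as the calls that define the class largely require.

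DDIT4, which restrains mTORC1 signalling, had the largest held rise among genes with ample counts at 1 h. DDIT4 was at 84.3 and 87.8 CPM with vehicle and 458 and 468 with Dex at 1 h, then 228 and 133 with vehicle and 740.1 and 687 with Dex at 6 h. The 6 h vehicle libraries differed between themselves, and both lay above the 1 h vehicle pair. The change was 2.43 ± 0.23 (SE) at 1 h and 2.00 ± 0.22 (SE) at 6 h, with kinetics of -0.43 ± 0.32 (SE), adjusted p = 0.572, and the 6 h call was lost with a fit of the compared groups alone (adjusted p = 0.123). RASD1, a Ras-like protein named for its induction by Dex, had 43 counts with Dex and 2 with vehicle at 1 h, a ratio of 22.0 (95% exact interval 5.72 to 187, counting error only). At 6 h it had 209 and 2 counts, a ratio of 124 (33.9 to 1032). Its Dex libraries rose from 1.38 and 1.23 to 6.79 and 6.74 CPM, yet the intervals overlap and the kinetics were not called. WNT16, a secreted Wnt ligand, behaved alike in counts, with 27 against 1 at 1 h and 123 against 2 at 6 h. A 1 h call of RASD1 or WNT16 was lost in some alternatives, for RASD1 without vehicle replicate 1 at 1 h or vehicle replicate 2 at 1 h (adjusted p 0.0844 to 0.102) and for WNT16 without vehicle replicate 1 at 1 h, vehicle replicate 2 at 1 h or Dex replicate 1 at 1 h (adjusted p 0.0694 to 0.287), and with DESeq2 (adjusted p = 0.415).

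Lowered held genes included EGR2, an immediate-early zinc finger factor, ID3, an inhibitor of E proteins, SOX9, GPR183, an oxysterol receptor that guides B cell position, and CDKN1A, the cell cycle inhibitor p21. EGR2 stood at 49.8 and 52.9 CPM with vehicle and 23.7 and 22.1 with Dex at 1 h, then 50.4 and 50.4 with vehicle and 21.6 and 22.6 with Dex at 6 h. EGR2 changed by -1.17 ± 0.094 (SE) and -1.19 ± 0.095 (SE), so its kinetics were -0.023 ± 0.13 (SE), adjusted p = 0.963. ID3 was at 54.7 and 53.4 CPM with vehicle and 23.3 and 24.6 with Dex at 1 h, then 64.9 and 54.3 with vehicle and 31.3 and 30.7 with Dex at 6 h. ID3 changed by -1.17 ± 0.088 (SE) and -0.93 ± 0.085 (SE). GPR183 lay at 73.4 and 84.8 CPM with vehicle and 50.9 and 51.2 with Dex at 1 h, then 88.0 and 80.5 with vehicle and 50.9 and 46.3 with Dex at 6 h. GPR183 changed by -0.63 ± 0.080 (SE) and -0.79 ± 0.080 (SE). SOX9 changed by -0.82 and -1.06, and CDKN1A by -0.40 and -0.55. Of the 50 held genes, 27 (14 raised and 13 lowered) kept this class in all 14 alternatives. A kinetics call that is missed does not show that the effect stayed equal.

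Growing changes, called at both times and larger at 6 h, comprised 20 raised (0.132%) and 6 lowered genes (0.0395%). TSC22D3, which encodes the anti-inflammatory protein GILZ, was the most raised at 1 h. TSC22D3 stood at 36.2 and 32.5 CPM with vehicle and 272 and 257 with Dex at 1 h, then 33.3 and 31.1 with vehicle and 529.8 and 547 with Dex at 6 h (chrX:107713221-107777342, minus strand). Its vehicle libraries barely moved, and the 6 h Dex pair was clearly above the 1 h Dex pair. TSC22D3 rose by 2.95 ± 0.067 (SE) and 4.07 ± 0.068 (SE), with kinetics of 1.12 ± 0.094 (SE), adjusted p = 3.89e-10. OGFRL1 was at 6.58 and 6.29 CPM with vehicle and 17.2 and 15.6 with Dex at 1 h, then 5.41 and 6.10 with vehicle and 168 and 169.9 with Dex at 6 h (chr6:71288811-71309059, plus strand). OGFRL1, related to the opioid growth factor receptor, had the largest kinetics of the group, 3.51 ± 0.21 (SE), adjusted p = 3.34e-13. FSTL3 lay at 84.3 and 98.9 CPM with vehicle and 146 and 138 with Dex at 1 h, then 89.2 and 97.3 with vehicle and 646 and 662 with Dex at 6 h. FSTL3, a secreted antagonist of activin, rose by 0.64 ± 0.071 (SE) and 2.81 ± 0.071 (SE), with kinetics of 2.17 ± 0.099 (SE), adjusted p = 1.09e-14. CXCR4 stood at 19.3 and 18.0 CPM with vehicle and 89.1 and 88.1 with Dex at 1 h, then 17.0 and 16.8 with vehicle and 119 and 112 with Dex at 6 h (chr2:136114349-136119177, minus strand). CXCR4, the receptor for the chemokine CXCL12 that retains B cells in bone marrow, had kinetics of 0.52 ± 0.13 (SE), adjusted p = 0.00612, a call lost without vehicle replicate 1 at 1 h (adjusted p = 0.0554). In each of the 4 genes Dex and vehicle libraries were apart at both times, which follows largely from the calls that define the class.

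KLF9, a zinc finger repressor, had low counts: 12.7 and 13.3 CPM with Dex at 1 h and 24.6 and 25.2 at 6 h, against 4.06 and 4.55 and then 5.41 and 4.80 with vehicle. Its kinetics of 0.70 ± 0.20 (SE), adjusted p = 0.0268 were lost without any 1 library except vehicle replicate 1 at 1 h or vehicle replicate 1 at 6 h (adjusted p 0.0525 to 0.178), and with DESeq2 or no filter on low counts (adjusted p 0.0612 to 0.138). The clock repressor PER1 had kinetics of 0.41 ± 0.13 (SE), adjusted p = 0.0438, lost without any 1 library except Dex replicate 1 at 1 h or vehicle replicate 1 at 6 h (adjusted p 0.102 to 0.374), and with DESeq2 or a fit of the compared groups alone (adjusted p 0.0891 to 0.0950), and its 1 h call was lost without vehicle replicate 1 at 1 h, vehicle replicate 2 at 1 h or Dex replicate 1 at 1 h (adjusted p 0.131 to 1.0), and with a fit of the compared groups alone (adjusted p = 0.116). For MYC, the driver of growth, they were 0.34 ± 0.090 (SE), adjusted p = 0.0124, lost without vehicle replicate 1 at 1 h, vehicle replicate 1 at 6 h or Dex replicate 1 at 6 h (adjusted p 0.0531 to 0.115), and its 1 h call was lost without any 1 of the 4 libraries (adjusted p 0.0953 to 0.314). DUSP2, a MAP kinase phosphatase, had 0.29 ± 0.091 (SE), adjusted p = 0.0425, lost without any 1 library except vehicle replicate 1 at 6 h (adjusted p 0.0575 to 0.203), and with DESeq2 (adjusted p = 0.0505). Of the 20 raised growing genes, 6 kept the class in all 14 alternatives, and the number of growing genes of either direction was 11, 13, 12, 12 and 16 without vehicle replicate 1, vehicle replicate 2, Dex replicate 1 or Dex replicate 2 at 1 h, or Dex replicate 1 at 6 h.

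The lowered growing genes included receptors of lymphocytes. P2RY10 was at 77.6 and 86.7 CPM with vehicle and 63.1 and 62.2 with Dex at 1 h, then 82.5 and 89.8 with vehicle and 37.8 and 39.9 with Dex at 6 h. P2RY10, a lysophosphatidylserine receptor of lymphocytes, had kinetics of -0.76 ± 0.10 (SE), adjusted p = 1.82e-06, and its 1 h call was lost without vehicle replicate 2 at 1 h (adjusted p = 0.141). TLR1, a receptor for bacterial lipopeptides, changed by -0.45 and -0.87, and RAB11FIP1, of endosome recycling, by -0.24 and -0.83. COL1A1, a collagen chain, changed by -0.57 and -1.68 at 9.62 and 10.7 CPM with vehicle at 6 h. MCL1, the anti-apoptotic BCL2 relative, changed by -0.19 and -0.39. In MCL1 the kinetics call was lost without any 1 of the 8 libraries (adjusted p 0.0630 to 0.181), and with no filter on low counts (adjusted p = 0.127), and the 1 h call without any 1 of the 4 libraries (adjusted p 0.160 to 0.621), and with no filter on low counts (adjusted p = 0.0952). In TLR1 the kinetics call was lost without any 1 library except vehicle replicate 1 at 1 h or vehicle replicate 2 at 6 h (adjusted p 0.0560 to 0.189), and with DESeq2 (adjusted p = 0.0929), and the 1 h call without vehicle replicate 1 at 1 h or Dex replicate 1 at 1 h (adjusted p 0.0720 to 0.184). For RAB11FIP1 the 1 h call was lost without any 1 of the 4 libraries (adjusted p 0.102 to 0.836), and with DESeq2 (adjusted p = 0.0850), and for COL1A1 without any 1 of the 4 libraries (adjusted p 0.185 to 0.688), and with DESeq2 or no filter on low counts or the replicate block (adjusted p 0.0550 to 0.549).

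Only 2 of the 92 genes called at 1 h have no class, both lowered: HES1, a Notch target (-1.25 and -0.42), and C16orf87 (-0.38 and -0.22). A further 22 genes had called kinetics without a call at either time, 11 in each direction.

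Late rises numbered 556 genes (3.66%), with a median of 0.013 at 1 h and 0.61 at 6 h, where the rule itself sets that order. The largest kinetics were read among genes with at least 5 CPM in the mean of the highest of the 4 groups. Both 6 h Dex libraries also had to lie beyond both vehicle libraries. The leading genes were near silence in the other 6 libraries and met the 5 CPM only with Dex at 6 h. The rule and the ranking by kinetics favour this pattern, and the size of such a change rests on few counts in the other groups. FRMD3 stood at 0.922 and 0.954 CPM with vehicle and 1.07 and 0.583 with Dex at 1 h, then 0.334 and 0.403 with vehicle and 21.8 and 17.3 with Dex at 6 h. Its 6 h Dex pair alone was high, with kinetics of 5.88 ± 0.58 (SE), adjusted p = 1.07e-08. VSTM2L was at 0.738 and 1.07 CPM with vehicle and 1.01 and 1.28 with Dex at 1 h, then 0.868 and 0.314 with vehicle and 25.2 and 23.0 with Dex at 6 h, with kinetics of 5.11 ± 0.58 (SE), adjusted p = 1.54e-07. LGR4 lay at 0.738 and 1.12 CPM with vehicle and 0.817 and 0.467 with Dex at 1 h, then 0.267 and 0.807 with vehicle and 8.92 and 8.74 with Dex at 6 h. LGR4, a receptor for R-spondins, had kinetics of 4.47 ± 0.57 (SE), adjusted p = 1.03e-06. SLC9A2, a sodium-proton exchanger, reached 4.78 and 5.41 CPM with Dex at 6 h and LDLRAD3 5.70 and 6.15, and their other 6 libraries were at most 0.337 and 1.60 CPM. The SLC9A2 kinetics call was lost without vehicle replicate 2 at 1 h (adjusted p = 0.0808).

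Among late rises of abundant genes were known glucocorticoid targets and regulators of survival and insulin signalling. SMAP2 stood at 309.5 and 307 CPM with vehicle and 338 and 323 with Dex at 1 h, then 326 and 292 with vehicle and 744 and 719.6 with Dex at 6 h. SMAP2, an Arf GTPase activator, had kinetics of 1.14 ± 0.079 (SE), adjusted p = 6.32e-12. BCL2L11 was at 17.0 and 16.4 CPM with vehicle and 21.7 and 20.1 with Dex at 1 h, then 12.7 and 14.9 with vehicle and 49.4 and 47.5 with Dex at 6 h. BCL2L11, which encodes the pro-apoptotic protein BIM, had kinetics of 1.48 ± 0.16 (SE), adjusted p = 6.21e-08, and at 1 h its Dex libraries already lay above both vehicle libraries, with 0.33 ± 0.12 (SE), adjusted p = 0.574. INSR lay at 51.3 and 51.7 CPM with vehicle and 50.9 and 52.1 with Dex at 1 h, then 49.2 and 53.7 with vehicle and 137 and 146 with Dex at 6 h. INSR, the insulin receptor, had kinetics of 1.46 ± 0.12 (SE), adjusted p = 2.30e-10, and FOXO1, a transcription factor restrained by insulin signalling, had 0.97 ± 0.11 (SE), adjusted p = 2.37e-07. PIK3IP1, an inhibitor of PI3 kinase, had 1.53 ± 0.20 (SE), adjusted p = 2.05e-06. CFLAR stood at 350.4 and 374 CPM with vehicle and 384 and 379.9 with Dex at 1 h, then 393 and 395 with vehicle and 678 and 712 with Dex at 6 h. CFLAR, an inhibitor of caspase-8 activation, had kinetics of 0.74 ± 0.073 (SE), adjusted p = 1.02e-08. ZFP36, which destabilises cytokine mRNA, was at -0.25 ± 0.072 (SE) at 1 h, not called (adjusted p = 0.174), and at 0.38 ± 0.069 (SE) at 6 h.

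Late falls numbered 563 (3.71%). Under the same filter the leading genes were OASL (-1.92 ± 0.28 SE), IFIT1 (-1.89 ± 0.25 SE) and CMPK2 (-1.68 ± 0.20 SE), all antiviral interferon-stimulated genes, followed by DGKI (-1.55), a diacylglycerol kinase, and FCRL4 (-1.43), an Fc receptor-like protein of B cells. IFIT1 stood at 46.4 and 44.8 CPM with vehicle and 40.5 and 39.3 with Dex at 1 h, then 59.4 and 54.5 with vehicle and 14.2 and 12.6 with Dex at 6 h. The 6 h Dex pair lay far below all other libraries, and the 1 h Dex pair slightly below its vehicle pair. Both vehicle libraries were higher at 6 h than at 1 h. LTA was at 137 and 142 CPM with vehicle and 126 and 121 with Dex at 1 h, then 175 and 158 with vehicle and 61.9 and 60.5 with Dex at 6 h (chr6:31572054-31574324, plus strand). LTA, the cytokine lymphotoxin alpha encoded beside TNF, fell late, with kinetics of -1.26 ± 0.085 (SE), adjusted p = 3.58e-12, in contrast to the fading fall of TNF. Its vehicle libraries rose between the times by 0.25 ± 0.058 (SE), adjusted p = 0.0211. LTB, which forms a membrane complex with LTA, had kinetics of -0.97 ± 0.099 (SE), adjusted p = 2.45e-08. IL1B had 3 counts with Dex at 6 h against 120 with vehicle, 33.7-fold higher in vehicle (95% exact interval 11.2 to 166, counting error only).

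Genes of B cell identity were among the late falls. CD22 stood at 205 and 199.6 CPM with vehicle and 203 and 195 with Dex at 1 h, then 193 and 186 with vehicle and 101 and 103 with Dex at 6 h. CD22, a sialic acid-binding receptor that restrains B cell receptor signalling, had kinetics of -0.87 ± 0.075 (SE), adjusted p = 5.37e-10. PAX5 was at 406 and 432 CPM with vehicle and 420.1 and 427 with Dex at 1 h, then 401 and 413 with vehicle and 241 and 247 with Dex at 6 h. PAX5, the factor that maintains B cell identity, had kinetics of -0.75 ± 0.070 (SE), adjusted p = 3.53e-09. CR2 lay at 99.7 and 106 CPM with vehicle and 102 and 103 with Dex at 1 h, then 97.8 and 102 with vehicle and 51.2 and 53.8 with Dex at 6 h. CR2, the complement receptor that Epstein-Barr virus binds, had -0.93 ± 0.095 (SE), adjusted p = 2.09e-08. CIITA stood at 303 and 304 CPM with vehicle and 308 and 306 with Dex at 1 h, then 322 and 328 with vehicle and 186 and 188 with Dex at 6 h. CIITA, the master activator of MHC class II genes, had -0.81 ± 0.093 (SE), adjusted p = 4.31e-07. In all 4 genes the 6 h Dex pair lay below each of the other 6 libraries. They were taken for the smallest kinetics p of their list, so this follows largely from the choice of genes.

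Gene lists were read against all genes tested, of which 0.362% rose and 0.244% fell at 1 h, 8.06% rose and 7.53% fell at 6 h, and whose median kinetics was 0.001. Of 33 glucocorticoid-induced genes measured, 11 were up and 2 down at 1 h, 20 up and 3 down at 6 h, and 12 had kinetics called up and 0 down, with a median of 0.43. The 12 were 7 late genes, FKBP5, ZFP36, KLF13, BCL2L11, PIK3IP1, SMAP2 and SESN1, 4 growing ones, TSC22D3, PER1, KLF9 and CXCR4, and fading GADD45B, which fell. DUSP1, a MAP kinase phosphatase and a textbook Dex target, was at -0.22 and 0.74 without called kinetics, and SGK1, another, at 0.025 and -0.48. Immediate-early genes (23 measured) were called 2 up and 7 down at 1 h, 3 up and 7 down at 6 h, and 5 up and 2 down in the kinetics. The kinetics calls up were JUN, IER2, JUNB and BTG2, whose 1 h fall was lost in whole or part, and MYC. Inhibitors of signalling and mRNA decay factors (26 measured) were called 9 up and 2 down at 1 h, 10 up and 5 down at 6 h, and 3 up and 2 down in the kinetics. Of these, 8 were held: ZFP36L2, NFKBIA, TNFAIP3, SOCS1, CISH and RGS1 raised, ZFP36L1 and RGS16 lowered. The 1 h call of CISH was lost without vehicle replicate 1 at 1 h, vehicle replicate 2 at 1 h or Dex replicate 1 at 1 h (adjusted p 0.0622 to 0.290), and the 6 h calls of NFKBIA and TNFAIP3 without vehicle replicate 2 at 6 h (adjusted p = 0.0651 and 0.0673). Among 13 KLF factors, KLF6 was fading, KLF2 held, KLF9 growing and KLF5, KLF7 and KLF13 late, all raised. The list was called 3 up and 0 down at 1 h and 7 up and 0 down at 6 h. In the kinetics 4 were called up and 1 down. The median kinetics, 0.62, is the value of KLF4, which was not called (0.62 ± 0.62 (SE), adjusted p = 0.698). The kinetics calls of KLF7 and KLF13 stood without each of the 8 libraries and with DESeq2, and that of KLF5 was lost without vehicle replicate 2 at 1 h, Dex replicate 2 at 1 h, vehicle replicate 1 at 6 h or Dex replicate 2 at 6 h (adjusted p 0.0508 to 0.118), and with DESeq2 (adjusted p = 0.0627). In the glucocorticoid-induced list 8 of 12 kinetics calls stood without each library and 9 with DESeq2, and in the immediate-early list 3 and 5 of 7.

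NF-kB and inflammatory targets (31 measured) were called 1 up and 1 down at 1 h, 2 up and 18 down at 6 h, and 2 up and 12 down in the kinetics, with a median kinetics of -0.38. The 12 falls were LTA, LTB, IL1B, CCL5, CCL22, TRAF1, RELB, NFKB2, CD40, CD80, CD83 and BCL2A1, and the 2 kinetics calls up were TNF, which is fading, and CFLAR. TRAF1, a signalling adaptor, had kinetics of -0.69 ± 0.075 (SE), adjusted p = 8.65e-08, with its vehicle libraries higher at 6 h (0.21 ± 0.053 (SE), adjusted p = 0.0408). Interferon gamma targets (24 measured) were called 1 up and 0 down at 1 h, 2 up and 11 down at 6 h, and 0 up and 5 down in the kinetics. Of the 14 kinetics calls of the NF-kB list 10 stood without each of the 8 libraries, all but those of CCL5, CCL22, CD80 and CD83, and 14 with DESeq2. Among the 5 interferon gamma targets lowered were GBP4, CD274, CIITA and APOL3. The GBP4 call was lost without 1 of the libraries, and the CD274 call without vehicle replicate 2 at 6 h or Dex replicate 2 at 6 h. Of the 5 calls, 3 stood without each library. B cell identity genes (30 measured) were called 0 up and 0 down at 1 h, 4 up and 15 down at 6 h, and 1 up and 11 down in the kinetics, with a median of -0.24. Falls in the kinetics comprised the surface proteins MS4A1, CD22, CD24, CR2, FCER2 and TNFRSF13C. The factors PAX5, SPIB and CIITA and the signalling proteins LYN and BLNK fell as well. BLK, a Src family kinase, was raised at 6 h by 0.43. The factors EBF1 (0.39), POU2AF1 (0.29) and IRF8 (0.22) were also called up at 6 h, without called kinetics. All but 3 of the 12 kinetics calls of this list, CD24, SPIB and TNFRSF13C, stood without each library. A set of 6 B cell markers, among them MS4A1, CD79A, CD79B, CD22 and PAX5, summed to 1408 to 1419 CPM with Dex at 6 h and to 1889 to 1990.0 CPM in the other 6 libraries. In bulk RNA, fewer cells of a type and less RNA per cell cannot be told apart. Markers of other cell types stayed low: 6 T cell genes summed to 56.1 to 73.3 CPM with 2 of them at 0, 5 NK cell genes to 4.38 to 7.23, and 6 monocyte genes to 0.309 to 0.788 with 1 at 0. T cell markers summed to 56.1 and 60.6 CPM with Dex at 6 h against 59.8 and 71.6 with vehicle, and their part in the result was not tested.

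MHC class II genes (17 measured) were called 0 up and 0 down at 1 h, 0 up and 8 down at 6 h, and 0 up and 7 down in the kinetics. Besides CIITA the falls were HLA-DRB1, HLA-DQA1, HLA-DMA, HLA-DMB, RFX5 and IFI30, between -0.22 for HLA-DMB and -0.43 for IFI30 at 6 h, and HLA-DRA was at -0.075 and CD74 at 0.067, neither called in the kinetics. HLA genes are alike in sequence, so their counts may be split between copies. The HLA-DRB1 and RFX5 calls were each lost on leaving out any 1 of 7 of the 8 libraries, and that of HLA-DMB on leaving out any of the 8. That of IFI30 was lost without vehicle replicate 1 or Dex replicate 2 at either time. Only 3 of the 7 calls, those of CIITA, HLA-DQA1 and HLA-DMA, stood without each library. B cell homing receptors (17 measured) were called 1 up and 2 down at 1 h, 2 up and 8 down at 6 h, and 2 up and 6 down in the kinetics. CXCR4 and ITGB1, a beta 1 integrin chain, went up, while CXCR3, CXCR5, ITGAL, ITGB7, ITGA4 and P2RY8 fell late, and the ITGA4 call was lost without at least 1 library (highest adjusted p = 0.0630). CXCR5, which leads B cells to follicles, was at -0.59 at 1 h and -1.69 at 6 h. ITGAL stood at 216 and 196 CPM with vehicle and 226 and 199 with Dex at 1 h, then 185 and 181 with vehicle and 102 and 109 with Dex at 6 h. ITGAL, the alpha chain of LFA-1, had kinetics of -0.84 ± 0.11 (SE), adjusted p = 1.21e-05. The plasma cell list (12 measured) was called 1 up and 0 down at 1 h, 4 up and 2 down at 6 h, and 2 up and 0 down in the kinetics: PRDM1 was held, and IRF4 (0.74 at 6 h) and ELL2 (0.43) rose late, both of which act in plasma cell differentiation.

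DNA replication genes rose by small amounts at 6 h, 12 of 21 measured. They were called 0 up and 0 down at 1 h, 12 up and 0 down at 6 h, and 7 up and 0 down in the kinetics, with medians of 0.014 at 1 h and 0.19 at 6 h. Kinetics were called for MCM3, MCM4 and MCM6 of the replicative helicase, CDC6, GINS2, PCNA, the polymerase clamp, and E2F1, at 6 h changes between 0.27 for MCM6 and 0.47 for GINS2. PCNA stood at 157 and 167 CPM with vehicle and 161 and 172 with Dex at 1 h, then 157 and 157 with vehicle and 206 and 189.5 with Dex at 6 h. The Dex pair at 6 h was above the other 6 libraries. None of the 7 kinetics calls stood without each of the 8 libraries in turn, and 6 stood with DESeq2, all but CDC6. Calls were lost for PCNA without vehicle replicate 2 at 1 h, Dex replicate 1 at 1 h or Dex replicate 1 at 6 h (adjusted p 0.119 to 0.162), for E2F1 without vehicle replicate 2 at 1 h, Dex replicate 1 at 1 h or Dex replicate 1 at 6 h (adjusted p 0.0525 to 0.144), for GINS2 without Dex replicate 1 at 1 h, vehicle replicate 2 at 6 h or Dex replicate 1 at 6 h (adjusted p 0.0529 to 0.105) and for MCM4 without any 1 library except vehicle replicate 1 at 6 h or Dex replicate 2 at 6 h (adjusted p 0.0595 to 0.155). None of 20 genes of G2 and M phase was called at 1 h, 6 h or in the kinetics, with median kinetics of -0.029, and none was called by DESeq2 either. At an unadjusted p under 0.05 in edgeR there were 0 of them at 1 h, 3 at 6 h and 0 in the kinetics. FOXO, insulin and mTOR regulators (19 measured) were called 4 up and 0 down at 1 h, 12 up and 1 down at 6 h, and 4 up and 1 down in the kinetics. DDIT4, TXNIP, CITED2 and TRIB1 were held, and SESN1, PIK3IP1, INSR and FOXO1 rose late, whereas SESN3, a sestrin, fell (-0.80 in the kinetics). That call was lost without vehicle replicate 1 at 1 h, Dex replicate 1 at 1 h, vehicle replicate 2 at 6 h or Dex replicate 1 at 6 h (adjusted p 0.0618 to 0.143). The SESN1 call was lost on leaving out any 1 of 4 of the libraries, and with DESeq2. The BCL2 family (14 measured) was called 1 up and 1 down at 1 h and 4 up and 3 down at 6 h. In the kinetics 2 were called up and 2 down. BCL2L11 and BMF, which are pro-apoptotic, rose late, and PMAIP1 was held at 0.63 and 0.74. The anti-apoptotic genes MCL1 and BCL2A1 had kinetics of -0.20 and -0.68, the MCL1 call lost without any 1 of the 8 libraries. BCL2, BCL2L1, BBC3, BAX, BAK1, BID and BAD were not called at 1 h, at 6 h or in the kinetics.

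**Figure D3:**
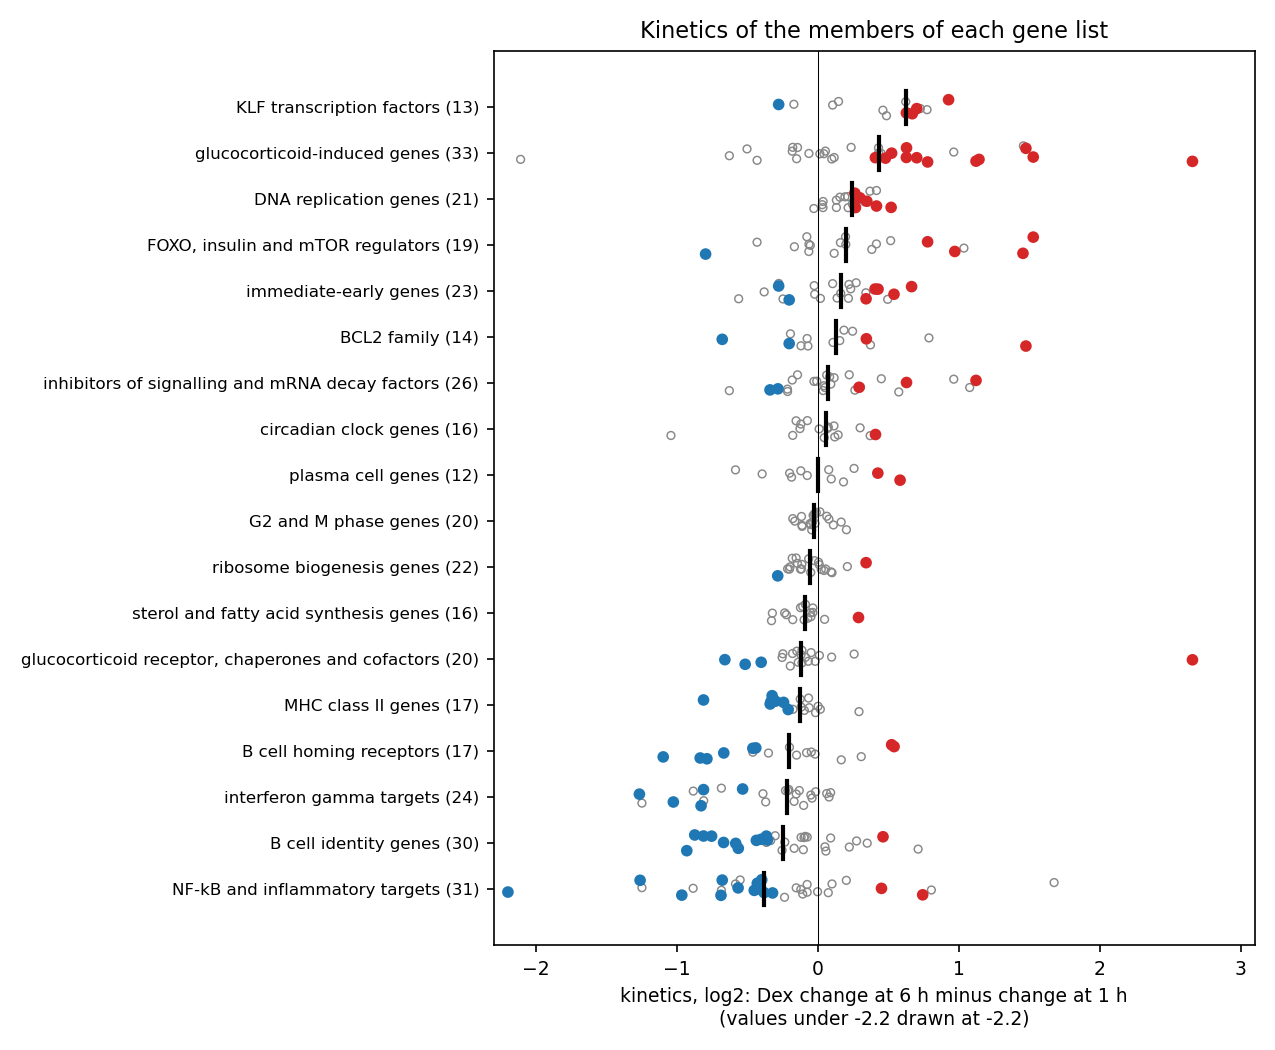
Kinetics of each measured member of the 18 gene lists on the x axis (log2), 1 row per list with the number measured in brackets. Filled points passed the test (red up, blue down), open points did not, and black bars are list medians, from -0.38 for NF-kB targets to 0.62 for KLF factors.

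The receptor's own gene was in the late group. NR3C1 stood at 175 and 184 CPM with vehicle and 182 and 181 with Dex at 1 h, then 194 and 204 with vehicle and 129.8 and 125 with Dex at 6 h (chr5:143277931-143435512, minus strand). The 6 h Dex pair was the lowest, and the 1 h groups were alike. NR3C1 had kinetics of -0.66 ± 0.086 (SE), adjusted p = 1.74e-06. The 20 genes for the receptor, its chaperones and cofactors were called 0 up and 0 down at 1 h, 2 up and 6 down at 6 h, and 1 up and 3 down in the kinetics. At 1 h none of these, of the MHC class II or of the B cell identity genes was called by DESeq2 either, and 0, 0 and 1 had an unadjusted p under 0.05 in edgeR. The other falls were the coactivators NCOA1 (-0.52 ± 0.078 (SE), adjusted p = 1.91e-05) and NCOA3 (-0.40 ± 0.082 (SE), adjusted p = 9.80e-04), and the rise was FKBP5. The chaperones HSP90AA1 (-0.098 at 6 h), HSP90AB1 (-0.063) and HSPA8 (-0.13) and the related co-chaperone FKBP4 (0.14) had no called kinetics.

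The classes were also described by the length of their genes in the genome. Genes raised at 1 h had a median genomic span of 14.1 kb and those lowered 7.17 kb, against 28.0 kb for all genes tested, 66.9 kb for late rises and 50.9 kb for late falls. Spans over 100 kb were found in 17.2% of all genes, in 5 of 55 genes raised at 1 h (9.09%), in 0 of 37 lowered at 1 h, in 199 late rises (35.9%) and in 167 late falls (29.8%). FKBP5 spans 155 kb and NFIL3 14.8 kb, and NR3C1 158 kb and JUNB 1.83 kb. There are exceptions on both sides: PRDM1 (116 kb) and FBXW7 (216 kb), a ubiquitin ligase subunit chosen here after its values were seen, rose at 1 h, and LTA (2.27 kb) fell late. Genes called at 6 h without called kinetics lay between, at 34.8 kb for 615 higher and 33.7 kb for 550 lower genes. The spans are those of GENCODE 44 on hg38 and are given as a description. Whether length has a part in the classes was not tested.

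**Figure D4:**
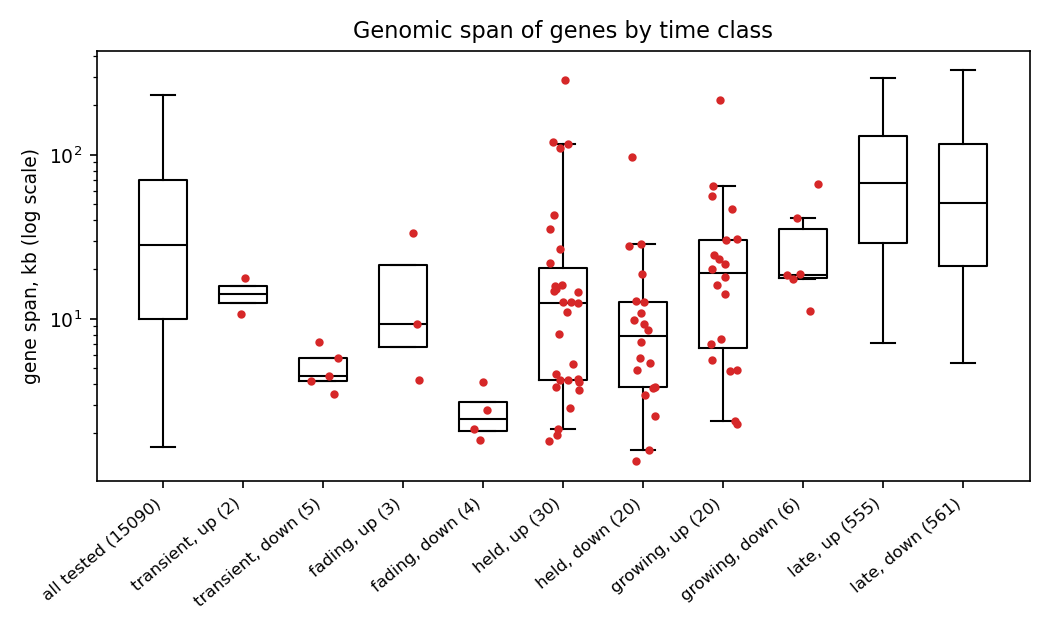
Genomic span in kb on a log y axis for all genes tested and for each time class and direction (number of genes in brackets). Boxes show quartiles with the median, whiskers the 5th to 95th percentile, and red points single genes of classes with up to 30 members, and the lowered fading genes all lie under the lower quartile of all genes tested, 9.95 kb.

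The 6 h side of the classes could be read in libraries that took no part in choosing them, the stimulus panel of the same line, where 2 libraries with Dex 500 nM for 6 h stand beside 2 with DMSO and 2 with PBS. No label ties either vehicle to Dex, and Dex was compared with the mean of both. Over the 15042 genes tested in both experiments, 4003 were called there (26.6%), 13.4% up and 13.2% down. Of the 556 late rises 537 were called up and none down, and of the 563 late falls 528 were called down and none up. All 30 raised and 20 lowered held genes, all 20 raised and 6 lowered growing genes and all 7 fading genes were called in their own direction. Of the 7 transient genes 3 were called in the 1 h direction, IRF2BPL (-0.18), SERTAD3 (-0.28) and TAGAP (0.56), whereas JUN was at 0.039 ± 0.071 (SE), adjusted p = 0.755. FKBP5 read 126 and 119 CPM with DMSO, 119 and 128 with PBS and 845 and 878 with Dex, a rise of 2.81 ± 0.037 (SE). NFIL3 rose by 2.04 ± 0.16 (SE) and TSC22D3 by 4.30 ± 0.046 (SE). The panel has no 1 h samples, so it does not bear on the 1 h side of the kinetics.

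The same difference of differences was taken in the 8 libraries of cells given 10 µM BRM014 for 30 min before Dex or vehicle. These libraries are not in the comparisons that set the classes. Unlike the panel, they shared the fit with the DMSO arm, and with it the filter, the scaling and the estimate of spread. There 522 genes had called kinetics (3.44%), 283 up (1.86%) and 239 down (1.57%), and 344 without vehicle replicate 2 at 6 h of that arm. Of the 556 late rises 169 were called up and 2 down, and 483 had the same sign. Of the 563 late falls 147 were called down and none up, with 512 of the same sign. Growing genes were called in their own direction in 10 of 20 raised and 4 of 6 lowered cases. OGFRL1 had kinetics of 3.42 ± 0.20 (SE) with BRM014, FSTL3 2.63 ± 0.11 (SE) and TSC22D3 1.36 ± 0.096 (SE). JUN was at 0.26 ± 0.14 (SE), adjusted p = 0.457, and the 4 lowered fading genes lay between 0.071 for BTG2 and 0.31 for GADD45B, of which GADD45B alone was called (adjusted p = 0.0197).

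The difference between the arms itself was called for 92 genes (0.606%), 24 up (0.158%) and 68 down (0.448%). Because the DMSO libraries that chose the classes also enter this difference, its counts within a class are a description. With BRM014, FKBP5 stood at 131 and 136 CPM with vehicle and 137 and 141 with Dex at 1 h, and 100.0 and 109 with vehicle and 231 and 222 with Dex at 6 h. Dex and vehicle did not overlap at 6 h, and the rise was smaller than in the DMSO arm. Its kinetics were 1.06 ± 0.074 (SE) with BRM014 against 2.66 ± 0.073 (SE) with DMSO, a difference of -1.60 ± 0.10 (SE), adjusted p = 1.31e-11. EGR2 stood at 50.7 and 49.3 CPM with vehicle and 36.3 and 32.4 with Dex at 1 h, and 17.6 and 20.2 with vehicle and 3.72 and 5.24 with Dex at 6 h. Its kinetics were -1.52 ± 0.17 (SE) with BRM014 against -0.023 ± 0.13 (SE) with DMSO, a difference of -1.50 ± 0.22 (SE), adjusted p = 1.04e-04. GLUL and RHOB were the only growing genes called, at -1.10 and -1.33, and were chosen here after their values were seen. In the DMSO arm the 1 h call of GLUL was lost without vehicle replicate 2 at 1 h or Dex replicate 1 at 1 h (adjusted p 0.200 to 0.202), and that of RHOB without vehicle replicate 1 at 1 h or Dex replicate 2 at 1 h (adjusted p 0.258 to 0.270). NFIL3, with kinetics of 0.53 ± 0.25 (SE) in the BRM014 arm, was not called different (0.71 ± 0.33 (SE), adjusted p = 0.565).

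**Figure D5:**
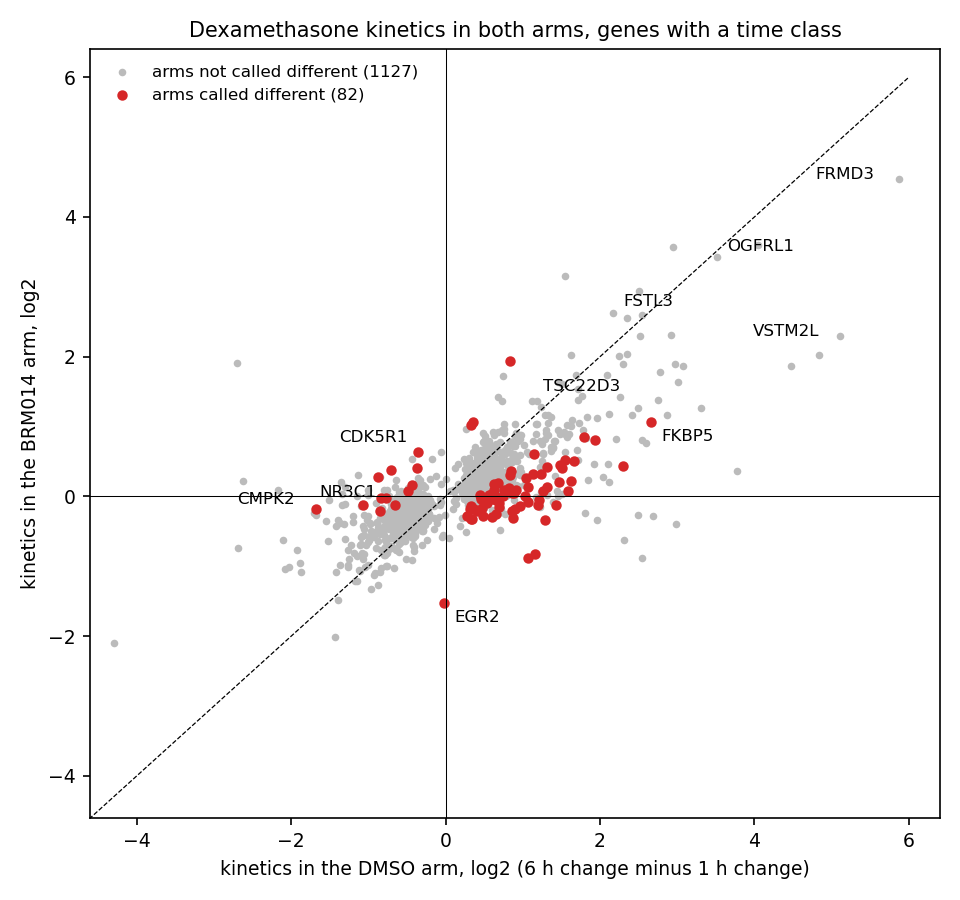
Kinetics (log2) in the DMSO arm on the x axis and in the BRM014 arm on the y axis for the 1209 genes with a time class, red where the arms were called different, with equal values on the dashed line. FKBP5 lies at 2.66 and 1.06, and OGFRL1, at 3.51 and 3.42, near the line. Points beyond the axes are not drawn, among them a late rise with kinetics of 6.93 in the DMSO arm.

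Cells given interferon gamma (IFNg) after DMSO were compared over the same 2 times. The change from 1 h to 6 h under Dex minus that under IFNg, in which vehicle cancels, was called for 1775 genes (11.7%), 947 up (6.24%) and 828 down (5.45%). It uses the same Dex libraries as the classes and is given for the markers only. FKBP5 held 139.8 and 137 CPM at 1 h and 112 and 125 at 6 h with IFNg, a difference of 2.93 ± 0.074 (SE), adjusted p = 2.54e-23. NFIL3 held 4.38 and 4.50 CPM at 1 h and 4.42 and 4.67 at 6 h with IFNg, a difference of 0.16 ± 0.22 (SE), adjusted p = 0.764.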

How the data were processed

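RNA enriched for polyadenylated transcripts was read as stranded paired libraries, per the labels' protocols. The values are expected counts per gene as the authors deposited them, estimated counts per the file headers, and STAR, RSEM and hg38 are named in the submitters' processing notes, with no version. No source used here tells whether the strand entered the counting, which leaves antisense and overlapping genes uncertain. Of 59526 identifiers per file, 58780 are Ensembl genes, 58207 of them in GENCODE 44, and the other 746 hold 0 counts and were left out. Counts were rounded to whole numbers. The 24 libraries of the pretreatment experiment, in 12 groups, were fitted together in edgeR 4.0.16 (R 4.3.3) with filterByExpr, TMM factors (0.966 to 1.06), the robust quasi-likelihood test and no covariates, with 12 residual degrees of freedom and a common biological coefficient of variation of 0.0490. The 15 panel libraries had their own fit, over 15775 genes. A standard error is the absolute log2 change divided by the root of F, and tests are 2-sided. CPM are counts scaled by library size and TMM factor. The sums over cell type markers are on another scale, by library size over all genes without the TMM factor.

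The genes named are FKBP5, NFIL3 and NR3C1, the 5 of largest size per time class and direction, and up to 4 members per list by kinetics p. Those named by class had at least 5 CPM in the mean of the highest of the 4 groups and both Dex libraries beyond both vehicle libraries. These rules set much of the separation between libraries described for named genes. Other genes stand where a class or a count is listed in full, or as single members of a list, and a few genes are not reported here. The members and lists were chosen with earlier results of these data known. Alternatives were DESeq2 1.42.0, its size factors in edgeR, no filter, a replicate block, only the compared groups, a threshold of 0.01 and each library left out in turn. Replicates differed by more than sampling noise in all groups, so no pair was counted as 1 sample. The depth of 13.8 to 22.3 M counts limits precision for genes of few counts.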

Additional observations from a re-analysis of the deposited data

Results flagged for a closer look

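The kinetics of 13 of the genes described differed between the BRM014 and the DMSO arm by the test of that difference, edgeR's quasi-likelihood test with the Benjamini-Hochberg adjustment over all genes. Over all 15183 genes tested the difference was called for 92 (0.606%), 24 up and 68 down. Each value is log2, BRM014 minus DMSO, from 2 libraries per group. Genes with a class were chosen on the DMSO arm, whose values also enter the difference, so the count of 13 is a description. Differences below zero were found for FKBP5 (2.66 with DMSO, 1.06 with BRM014, difference -1.60, adjusted p = 1.31e-11), EGR2 (-0.023 with DMSO, -1.52 with BRM014, difference -1.50, adjusted p = 1.04e-04), RHOB (1.20 with DMSO, -0.13 with BRM014, difference -1.33, adjusted p = 8.25e-04), GLUL (0.96 with DMSO, -0.13 with BRM014, difference -1.10, adjusted p = 2.55e-06) and BMF (0.34 with DMSO, -0.33 with BRM014, difference -0.67, adjusted p = 0.00201). They were also found for ITGB1 (0.54 with DMSO, -0.093 with BRM014, difference -0.63, adjusted p = 0.00712), IRF2BPL (0.41 with DMSO, -0.21 with BRM014, difference -0.62, adjusted p = 0.0422), SMAP2 (1.14 with DMSO, 0.60 with BRM014, difference -0.54, adjusted p = 0.00990) and KLF13 (0.63 with DMSO, 0.18 with BRM014, difference -0.45, adjusted p = 0.0230). Differences above zero were found for CMPK2 (-1.68 with DMSO, -0.17 with BRM014, difference 1.50, adjusted p = 0.0275), CDK5R1 (-0.35 with DMSO, 0.63 with BRM014, difference 0.99, adjusted p = 7.76e-04), ITGAL (-0.84 with DMSO, -0.028 with BRM014, difference 0.81, adjusted p = 0.0140) and NR3C1 (-0.66 with DMSO, -0.13 with BRM014, difference 0.53, adjusted p = 0.0288). EGR2, held with DMSO, fell further from 1 h to 6 h with BRM014, and CDK5R1, fading with DMSO, grew with BRM014.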

How the results depend on the processing

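The kinetics were called for 1165 genes with DESeq2 size factors, 910 with DESeq2, 1249 without a filter, 1211 with the replicate block and 1321 with only the compared groups, against 1181. Calls at 1 h numbered 162 with only the compared groups. The vehicle time calls were 360 without a filter and 75 with only the compared groups, and the calls of a difference between the arms 177 without a filter. At a threshold of 0.01 there were 1 transient, 4 fading, 12 growing and 707 late genes, and without a filter 11 transient genes. With each library left out in turn, calls ranged from 821 to 1009 for the kinetics, 61 to 74 at 1 h, 1621 to 2025 at 6 h, 27 to 161 for vehicle time, 344 to 517 for the kinetics with BRM014, 61 to 112 for the difference between the arms, 1332 to 1669 against IFNg and 2794 to 4181 in the panel. Transient genes ranged from 2 to 7, fading from 4 to 6, held from 39 to 57, growing from 11 to 22 and late from 781 to 962, and the cause of these shifts was not tested beyond the loss of 1 library. Among 104 named genes under the 13 alternatives other than that threshold, 1198 of 1352 kinetics values kept their side of the threshold and direction, 146 lost a call, 8 gained one and none reversed. Of the late genes, 312 of 556 raised and 278 of 563 lowered kept their class in all 14 alternatives. The replicate numbers were not taken as pairs, since the deviations of same-numbered DMSO-arm libraries correlated between -0.0516 and 0.0828, and with the replicate block 1211 genes were called. Where leaving a library out leaves 1 sample in a group, that sample is assumed to vary like the others. A change at 1 h that was not called is not shown to be absent.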

Other observations

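The circadian clock list (16 measured) was called 2 up and 0 down at 1 h, 3 up and 0 down at 6 h, and 1 up and 0 down in the kinetics: PER1 and NFIL3, described above, were the 2 raised at 1 h. Neither NR1D1 (0.20 at 6 h) nor BMAL1 (0.20) had called kinetics. Sterol and fatty acid synthesis genes (16 measured) were called 0 up and 0 down at 1 h, 1 up and 6 down at 6 h, and 1 up and 0 down in the kinetics. The 1 kinetics call of this list, LSS (0.28), was lost without any 1 library except vehicle replicate 1 at 6 h (adjusted p 0.0659 to 0.190), and with DESeq2 (adjusted p = 0.0591), and its 6 h call without vehicle replicate 2 at 6 h, Dex replicate 1 at 6 h or Dex replicate 2 at 6 h (adjusted p 0.0621 to 0.203). Ribosome biogenesis genes (22 measured) were called 1 up and 0 down at 1 h, 1 up and 2 down at 6 h, and 1 up and 1 down in the kinetics. The kinetics calls were MYC, which is in this list and the immediate-early one, and PPAN, a call lost without any 1 library except vehicle replicate 2 at 6 h (adjusted p 0.0604 to 0.213), and with DESeq2 or DESeq2 size factors or no filter on low counts (adjusted p 0.0513 to 0.0988). The plasma cell gene JCHAIN was at -0.37 ± 0.11 (SE), adjusted p = 0.0393 at 6 h, a call lost without any 1 of the 4 libraries (adjusted p 0.0977 to 0.208), and with no filter on low counts (adjusted p = 0.0645).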
